A study of Mus musculus with 2 samples.

Results

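The Iroquois homeobox genes of the mouse are 6 members, Irx1 to Irx6, and all 6 were found by symbol among the 27998 genes that both libraries share. Their transcripts were counted cell by cell with droplet RNA sequencing in E11.5 embryos, in tissue dissected from the lambdoid junction, where nasal and maxillary prominences of the upper face meet, with 1 library per genotype. The first library has the genotype Crect; ROSA26-lacZ, meaning a Cre driver active in the ectoderm combined with a ROSA26 lacZ reporter allele, and is called Crect lacZ below; the second is wild-type. Both are labelled C57BL/6J. Each library pooled the tissue of 4 to 5 embryos, so a difference between the genotypes cannot be checked against replicates, and neither label names a change in an Irx gene. After cells with more than 10% mitochondrial counts were left out, 6687 Crect lacZ cells and 7909 wild-type cells remained, with 126395819 and 126296568 unique molecular identifiers (UMIs, each a counted RNA molecule).

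Iroquois proteins are homeodomain transcription factors of the TALE class, which is defined by an extra loop in the homeodomain, and they pattern the neural plate, heart, limb and face. In mammals they lie in a pair of paralogous gene clusters. In humans, recessive IRX5 mutations cause Hamamy syndrome, which affects the face, and work in frog embryos tied IRX5 to the chemokine gene cxcl12 and to partners of the GATA and TRPS families. Irx3 and Irx5 act redundantly in the mouse limb and heart.

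On the mm10 genome, Irx1 (chr13:71957921-71963723, minus strand), Irx2 (chr13:72628820-72634198, plus strand) and Irx4 (chr13:73260479-73269608, plus strand) span 1312 kb of chromosome 13. Irx3 (chr8:91798525-91802067, minus strand), Irx5 (chr8:92357625-92376286, plus strand) and Irx6 (chr8:92674288-92680956, plus strand) span 882 kb of chromosome 8. All 6 are annotated as protein-coding. The promoter table matched 3 members. The 250 bases before the RefSeq start (build GRCm38.p6, plus strand) of Irx2, chr13:72628570-72628819, and of Irx4, chr13:73260247-73260496, are shown. These neighbours on chromosome 13 were both read mainly in the ectoderm, in parts of it that overlapped but were not the same. Capitals mark a match to GCCNNNGGC, the AP-2 motif, searched on both strands because AP-2 genes were among those most like Irx3 and Irx5 in the ectoderm.
Irx2: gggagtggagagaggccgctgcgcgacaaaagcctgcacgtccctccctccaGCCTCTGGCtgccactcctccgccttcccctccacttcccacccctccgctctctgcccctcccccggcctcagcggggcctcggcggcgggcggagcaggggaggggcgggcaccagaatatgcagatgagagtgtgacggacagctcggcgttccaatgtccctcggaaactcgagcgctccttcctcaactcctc
Irx4: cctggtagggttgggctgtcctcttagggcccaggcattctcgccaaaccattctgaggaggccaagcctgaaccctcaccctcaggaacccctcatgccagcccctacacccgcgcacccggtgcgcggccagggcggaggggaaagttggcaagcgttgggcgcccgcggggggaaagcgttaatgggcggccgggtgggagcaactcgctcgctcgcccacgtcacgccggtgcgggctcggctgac
The Irx2 window held 1 match, 198 bases before the start, and the windows of Irx3 and Irx4 held none; 13.7% of all promoters in the table have a match in the same 250 bases. The Iroquois motif ACANNTGT, found in 6.31% of promoters, and the MEIS and TGIF motif TGACAG, found in 15.9%, were in none of the 3 windows. The Irx2 window was 68.4% GC with 19 CpG dinucleotides and the Irx4 window 68.8% GC with 22, against a median of 6 CpG over all promoters.

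The members fell into a strongly read pair and a weakly read group. Irx3 had 9396 UMIs in the Crect lacZ library and 11222 in the wild-type library, and Irx5 had 6282 and 8291. Irx6 had 400 UMIs in the Crect lacZ library and 374 in the wild-type library. Irx1 had 160 and 172, Irx2 had 146 and 106, and Irx4 had 105 and 215, in the same order of libraries. Irx3 and Irx5 thus held most of the family's UMIs. The kit counts 3′ ends, so counts do not scale with transcript length, but capture differs between genes; levels are therefore compared between cells for 1 gene at a time.

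Cells were clustered without the Irx genes and named from fixed markers as mesenchyme-like (5253 Crect lacZ and 5913 wild-type cells), ectoderm-like (747 and 948), endothelium-like (118 and 207), erythroid-like (136 and 227), macrophage-like (28 and 30) and crest glia-like (22 and 28), after 369 and 504 likely doublets were left out. A further 14 Crect lacZ and 52 wild-type cells, led by platelet genes such as Pf4 but with mesenchymal levels of Irx3, were left unnamed. Median depth was 17581 UMIs per cell in the Crect lacZ library and 14112 in the wild-type library, and 207 and 57 barcodes had exceeded the mitochondrial limit. The libraries shared 76 cell barcodes. Values per cell group are given as CPM, the UMIs of a gene scaled to a common total of UMIs of that group; 95% intervals are exact and cover counting error only.

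Erythroid-like cells, red blood cells and their precursors, should lack these genes and set the background from free RNA. They had 6.15 CPM of Irx3 in the Crect lacZ library and 6.52 CPM in the wild-type library, and 3.08 and 2.52 CPM of Irx5. Of the other members, Irx1 had 0 and 4 UMIs there, Irx2 1 and 0, Irx6 0 and 2, and Irx4 none. At 0.592 CPM in wild type, Irx1 exceeded its mesenchymal level, as Irx2 did in Crect lacZ at 0.440 CPM. Levels of Irx1, Irx2 and Irx4 over all mesenchyme-like cells, given below, cannot be told from this background. After each cell was thinned to 3000 UMIs, an Irx3 UMI was found in 3.68% of Crect lacZ and 1.32% of wild-type erythroid-like cells, whose median depths were 13545.5 and 29449 UMIs before thinning and whose shares were then 10.3% and 17.2%. Endothelium-like cells were higher in Irx3, at 13.8 and 9.71 CPM, and near the erythroid level in Irx5, at 3.68 and 3.07 CPM.

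The chromosome 13 genes Irx1, Irx2 and Irx4 were read mainly in the ectoderm, and the chromosome 8 genes Irx3, Irx5 and Irx6 were read in both tissues. Irx4, known mainly from ventricular heart muscle, had 5.83 CPM in Crect lacZ and 10.6 CPM in wild-type ectoderm, against 0.150 and 0.193 CPM in the mesenchyme. Irx2 had 6.20 CPM in Crect lacZ and 5.24 CPM in wild-type ectoderm, against 0.354 and 0.0603 CPM in the mesenchyme. Irx1 had 5.03 CPM in Crect lacZ and 7.37 CPM in wild-type ectoderm, against 0.739 and 0.398 CPM in the mesenchyme. Ectoderm exceeded mesenchyme in both libraries for each of these 3 genes.

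The counts were summed per library and class and tested with edgeR's quasi-likelihood test, with library as a block; a gene was called where the adjusted p was below 0.05 and the change at least 2-fold. Irx4 was 47.1-fold higher in ectoderm (95% interval 29.9 to 74.1, adjusted p = 2.2e-07), Irx2 was 29.4-fold higher (14.8 to 58.6, adjusted p = 1.15e-05) and Irx1 was 11.1-fold higher (6.40 to 19.2, adjusted p = 2.56e-05). So 3 of 6 members were called higher and none lower, where 22.4% of the 15153 genes tested were called, 13.7% higher and 8.61% lower. The median log2 fold change was 1.67 over the 6 members and -0.03 over all genes tested. Irx2 and Irx4 passed the count filter through ectoderm, with 85 and 89 UMIs for Irx2 and 80 and 179 for Irx4. In mesenchyme Irx2 had 33 and 5 and Irx4 had 14 and 16. The count and median of the members are therefore not read against all genes. Over all mesenchyme-like cells, levels of the 3 called genes could not be told from the erythroid background, so the size of their folds is uncertain. Without the low-depth sub-clusters, led by Rpgrip1 in the mesenchyme and Rprml in the ectoderm, with medians of 7929 and 8294 UMIs per cell, the log2 ratios of these 3 genes lay between 2.82 and 5.30 in the Crect lacZ library and between 4.22 and 6.41 in the wild-type library.

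The chromosome 8 genes were not called between the tissues. Irx3 had 52.8 CPM in Crect lacZ and 96.0 CPM in wild-type ectoderm, against 83.9 and 102 CPM in the mesenchyme. Irx5 had 40.2 and 78.3 CPM in ectoderm, against 55.4 and 72.8 CPM in the mesenchyme. Irx6, known from bipolar cells of the retina, had 1.68 and 2.30 CPM in ectoderm, against 3.67 and 3.63 CPM in the mesenchyme. The log2 fold changes were -0.34 ± 0.13 for Irx3 (SE, adjusted p = 0.0491), -0.14 ± 0.13 for Irx5 (adjusted p = 0.392) and -0.84 ± 0.23 for Irx6 (adjusted p = 0.0124), all under the 2-fold threshold. For Irx5 the libraries disagreed in sign, with log2 ratios of -0.46 in Crect lacZ and 0.10 in wild type.

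**Figure D1:**
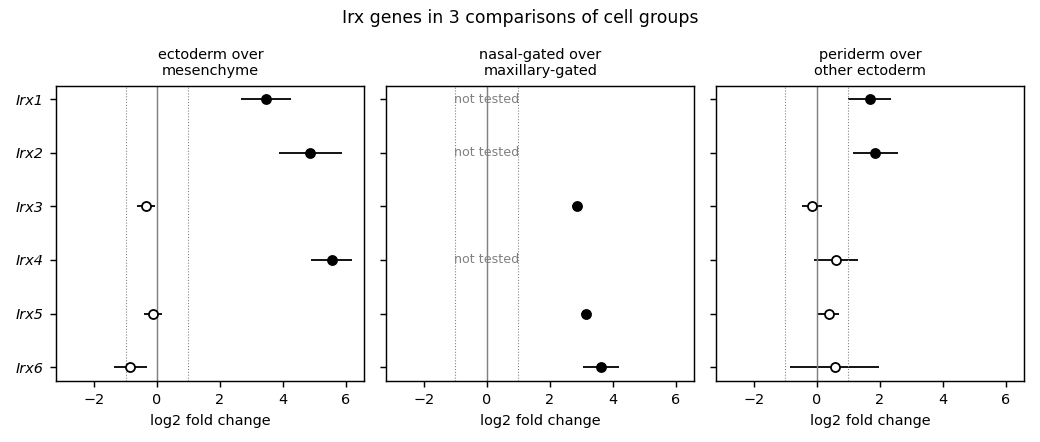
Log2 fold change (x axis) of each Irx gene in 3 comparisons of cell groups, with 95% intervals; filled points passed the call and open points did not, and dotted lines mark 2-fold. The chromosome 13 genes stand at 3.47 to 5.56 for ectoderm over mesenchyme, and Irx3, Irx5 and Irx6 at 2.85 to 3.62 for nasal-gated over maxillary-gated mesenchyme, where Irx1, Irx2 and Irx4 had too few counts to be tested.

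Among mesenchyme-like cells, the chromosome 8 genes were higher in nasal-gated than in maxillary-gated cells. Nasal-gated cells held 2 or more UMIs of Pax3 and Pax7, transcription factors of the nasal mesenchyme, and none of Lhx6 or Lhx8, LIM homeobox factors of the maxillary mesenchyme; maxillary-gated cells were the reverse. The gates took 1488 and 647 Crect lacZ cells and 1924 and 675 wild-type cells. Irx3 had 159 CPM in Crect lacZ and 176 CPM in wild-type nasal-gated cells, against 21.2 and 24.9 CPM in maxillary-gated cells. Irx5 had 106 and 132 CPM in nasal-gated cells, against 12.8 and 13.4 CPM in maxillary-gated cells. Irx6 had 7.76 and 7.38 CPM in nasal-gated cells, against 0.510 and 0.718 CPM in maxillary-gated cells. Both libraries showed all 3 genes higher in nasal-gated cells, and Irx3 and Irx5 in maxillary-gated cells were still above the erythroid level. After thinning, 31.7% of Crect lacZ and 34.4% of wild-type nasal-gated cells had an Irx3 UMI, against 5.56% and 6.96% of maxillary-gated cells; unthinned, the shares were 64.7% and 65.5%, against 26.0% and 26.4%.

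By the edgeR test, Irx3 was 7.22-fold higher (95% interval 6.59 to 7.90), Irx5 8.91-fold higher (8.02 to 9.90) and Irx6 12.3-fold higher (8.28 to 18.2, adjusted p = 1.28e-33); for Irx3 and Irx5 the adjusted p was smaller than the software can write. So 3 of 6 members were called higher, where 4.93% of the 13146 genes tested were called, 2.51% higher and 2.42% lower. Irx1, Irx2 and Irx4, at 2 to 35 UMIs in nasal-gated cells, did not pass the count filter. Irx6 passed it through nasal-gated cells, with 211 and 188 UMIs, against 6 and 7 in maxillary-gated cells, so the count of members called is not read against the share over all genes. In maxillary-gated cells Irx6, at 0.510 and 0.718 CPM, could not be told from the erythroid background, whose 95% intervals reached 1.62 and 1.07 CPM. The size of the Irx6 fold is therefore uncertain. The fit took 1 spread from all genes together, and so these p-values carry nothing about the spread of Irx3, Irx5 or Irx6 themselves.

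The RNAs beside Irx3 and Irx5 followed them. Crnde is a long noncoding RNA whose gene lies 1505 bases from Irx5 on the opposite strand, and it had 39.7 CPM in Crect lacZ and 59.9 CPM in wild-type nasal-gated cells, against 7.23 and 14.3 CPM in maxillary-gated cells (4.64-fold, 4.10 to 5.26, adjusted p = 2.4e-123 by edgeR). Irx3os overlaps Irx3 in antisense and was 6.31-fold higher in nasal-gated cells (3.96 to 10.1, adjusted p = 3.15e-13 by edgeR); the sources used here do not say how strand was treated in counting, so its counts and those of Irx3 may not be separate. Of 29 annotated genes within 500 kb of a member, 13 had 100 or more UMIs. Besides Crnde, 9 of them had 1000 or more: Fto, Rpgrip1l and Mmp2 on chromosome 8, and Ndufs6, Mrpl36, Lpcat1, Clptm1l, Slc12a7 and the pseudogene Gm10263 on chromosome 13. The ratio of nasal-gated to maxillary-gated CPM was 0.905 in Crect lacZ and 0.875 in wild type for Fto, 0.953 and 1.05 for Rpgrip1l, and 1.06 and 1.25 for Mmp2. These 3 neighbours on chromosome 8 thus showed no difference of the size seen for Irx3; the 6 on chromosome 13, beside members not tested here, also lay between 0.867 and 1.25. The remaining ones were Irx3os, Lpcat2, at 1.51 CPM in Crect lacZ and 3.22 CPM in wild-type nasal-gated cells, against 0.936 and 0.718 CPM in maxillary-gated cells, and Ces1d, a carboxylesterase gene at 7.36 and 4.83 CPM in ectoderm, against 0.193 and 0.0362 CPM in mesenchyme.

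Within the mesenchyme, sub-clusters differed more in these genes than the libraries did. Sub-clusters are named here by leading genes other than the members. Irx3 was highest in the Foxp2 and Igf1 sub-cluster, at 283 CPM in Crect lacZ (95% interval 273 to 293) and 305 CPM in wild type (294 to 317), where 51.7% and 51.9% of thinned cells, and 92.5% and 89.2% of cells at full depth, had a UMI. The Cxxc4 and Tgfb2 sub-cluster had 195 and 174 CPM, and the Hey2 and Lef1 sub-cluster had 177 and 192 CPM; the order of these 2 was not the same in both libraries. These 3 sub-clusters held 72.1% of mesenchymal Irx3 UMIs in the Crect lacZ library, with 26.6% of its mesenchyme-like cells, and 73.1% in the wild-type library, with 35.7% of its cells. The Calb2 and Gata2 sub-cluster, with Pax7 also among its leading genes, had 28.2 CPM of Irx3 in Crect lacZ and 49.6 CPM in wild type. Not every sub-cluster led by a nasal gate gene was thus high in Irx3. At the other end, the Asb4, Osr2 and Shox2 sub-cluster had 17.01 and 20.1 CPM, and the Sox9 and Pax9 sub-cluster had 9.90 CPM in the Crect lacZ library; that sub-cluster held 512 Crect lacZ cells and only 29 wild-type cells. Irx5 was also highest in the Foxp2 and Igf1 sub-cluster, with 177 CPM in Crect lacZ and 224 CPM in wild type. Irx6 was highest in the Hey2 and Foxp2 sub-clusters, at 12.2 and 11.7 CPM in Crect lacZ and 8.52 and 11.9 CPM in wild type, and at most 0.899 CPM in the Gsc, Slit2, Msx2 and Asb4 sub-clusters of either library.

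**Figure D2:**
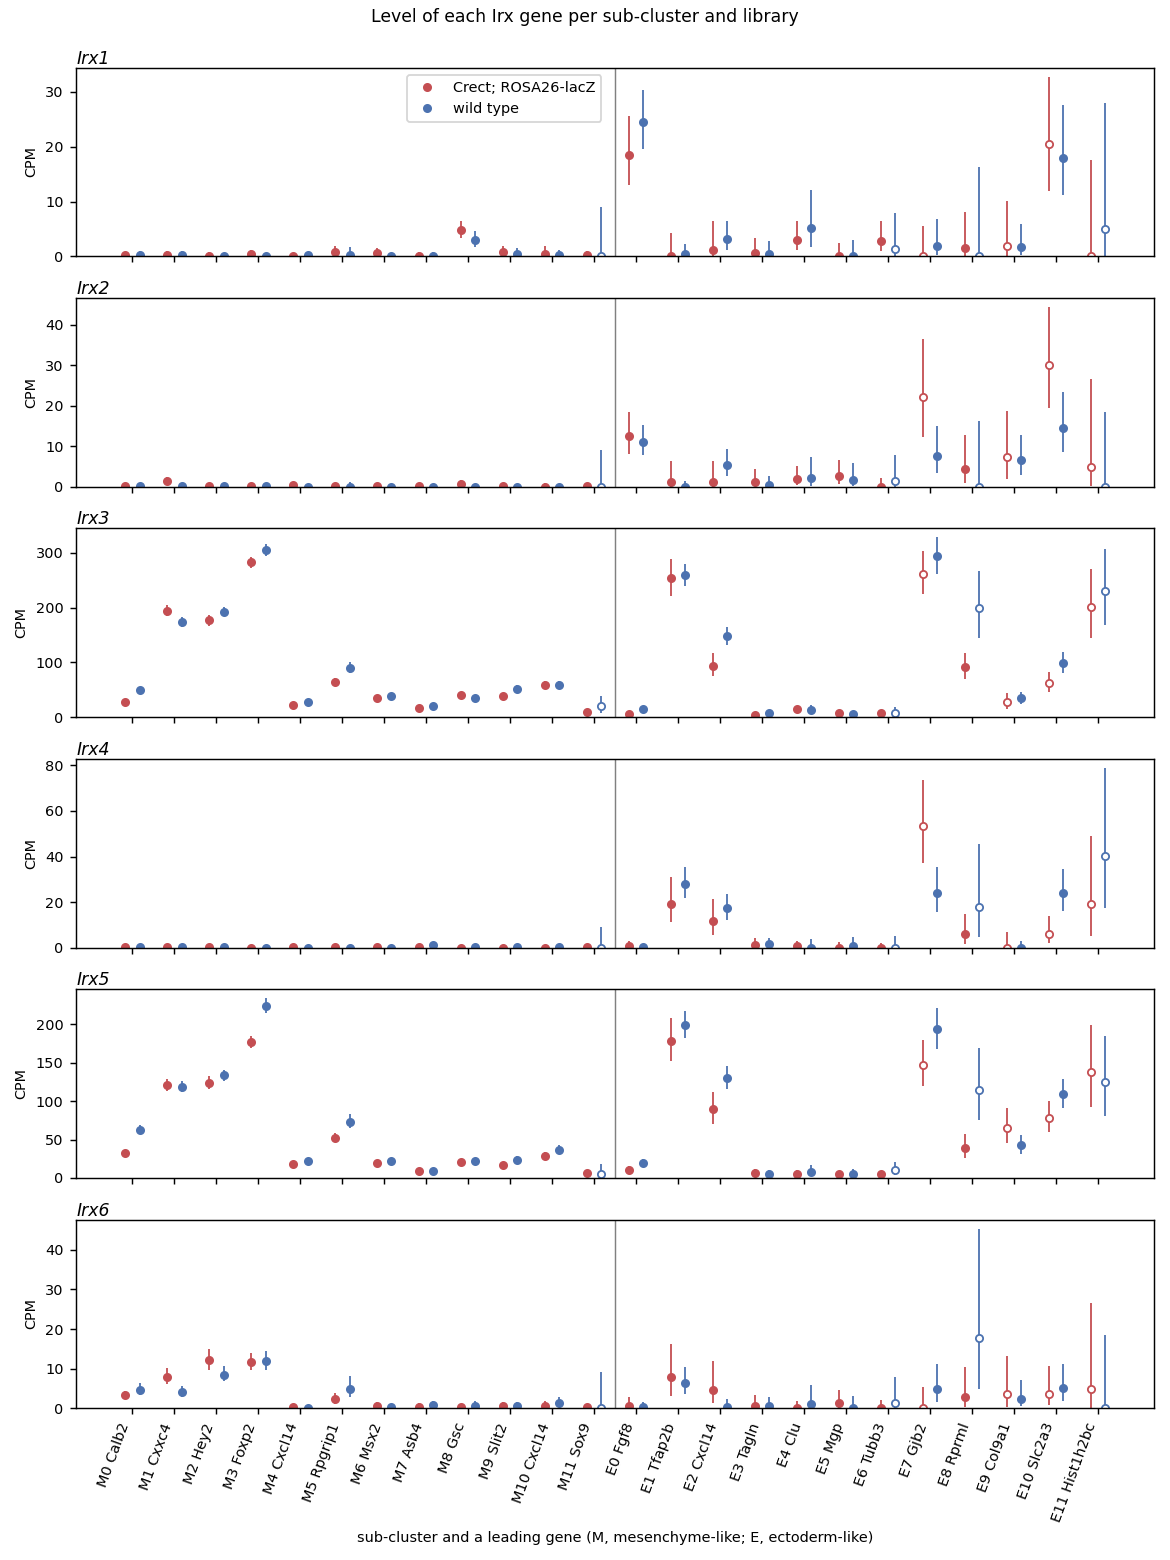
CPM of each Irx gene (y axis, own scale per gene) in 12 mesenchyme-like and 12 ectoderm-like sub-clusters (x axis, with a leading gene), Crect lacZ left of wild type, with exact 95% Poisson intervals; open points are sub-clusters of fewer than 50 cells in that library. Irx3 and Irx5 are high in M1 to M3, E1 and E7, Irx4 in E1, E2 and E7, and Irx1 in E0 and E10; E11, with 14 and 15 cells, has Irx3 at 201 and 231 CPM and Irx4 at 19.1 and 40.1 CPM, on 4 and 8 Irx4 UMIs.

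Irx1 was an exception in the mesenchyme. It was concentrated in the Gsc sub-cluster, named for the homeobox gene goosecoid, at 4.75 CPM in Crect lacZ (3.39 to 6.47, 40 UMIs in 414 cells) and 2.94 CPM in wild type (1.71 to 4.71, 17 UMIs in 387 cells). That sub-cluster held 58.0% of mesenchymal Irx1 UMIs in Crect lacZ and 51.5% in wild type, with 7.88% and 6.55% of the cells. The next sub-cluster was at 0.752 CPM in Crect lacZ and 0.502 CPM in wild type. Irx3 in the Gsc sub-cluster had 41.3 and 35.8 CPM, against medians of 40.02 and 51.9 CPM over the mesenchyme sub-clusters. Irx2 in the mesenchyme rested on 33 Crect lacZ and 5 wild-type UMIs and Irx4 on 14 and 16, too few to order sub-clusters.

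The ectoderm divided the family a second way. The Tfap2b and Wnt7b sub-cluster had 254 CPM of Irx3 in Crect lacZ and 259 CPM in wild type, with 179 and 200 CPM of Irx5 and 19.2 and 27.9 CPM of Irx4. The Gjb2, Gjb6 and Dkk4 sub-cluster had 262 and 294 CPM of Irx3, 148 and 194 CPM of Irx5, and 53.2 and 23.8 CPM of Irx4, on 36 and 25 Irx4 UMIs. The Cxcl14 and Wnt9b sub-cluster had 94.1 and 148 CPM of Irx3 and 11.6 and 17.2 CPM of Irx4. These 3 sub-clusters held 66.6% of ectodermal Irx3 UMIs and 78.8% of Irx4 UMIs in the Crect lacZ library, and 79.4% and 74.9% in the wild-type library, with 20.9% and 36.4% of the ectoderm-like cells. The sub-clusters led by Tagln and Aldh1a3, by Mgp and Gad2 and by the neuronal genes Tubb3 and Neurod1 had 4.21 to 8.48 CPM of Irx3, near the erythroid level.

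Irx1 was highest elsewhere, in the Fgf8 and Shh sub-cluster and in the Slc2a3, Emp1 and Gabrp sub-cluster, and Irx2 was highest in the Gabrp sub-cluster. Irx1 had 18.5 CPM in Crect lacZ (13.1 to 25.6) and 24.5 CPM in wild type (19.5 to 30.3) in the Fgf8 sub-cluster, where Irx4 had 1 UMI in each library and Irx3 only 5.01 and 14 CPM. Irx2 had 12.5 and 11.1 CPM there. In the Gabrp sub-cluster Irx1 had 20.5 CPM in Crect lacZ and 18.0 CPM in wild type, and Irx2 had 30.1 and 14.6 CPM. Together both sub-clusters held 78.3% of ectodermal Irx1 UMIs in Crect lacZ (66.7% to 87.3%) and 84.0% in wild type (76.4% to 89.9%), with 18.7% and 22.7% of the cells, while the 3 sub-clusters rich in Irx3 and Irx4 held 1.45% and 8%. Irx2 was less exclusive: those 3 held 20.0% and 22.5% of its UMIs. In the Crect lacZ library 15 of these 17 UMIs were in the Gjb2 sub-cluster, at 22.2 CPM, above the Fgf8 sub-cluster; in the wild-type library 8 of 20 were there and 12 in the Cxcl14 and Wnt9b sub-cluster. Irx4 was read in the Gabrp sub-cluster too, at 6.02 CPM in Crect lacZ (1.95 to 14.04) and 23.99 CPM in wild type (15.9 to 34.7), so that sub-cluster held both Irx1 and Irx4. Whether single cells held both could not be judged: no thinned ectoderm-like cell did, and both genes were thinly read.

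**Figure D3:**
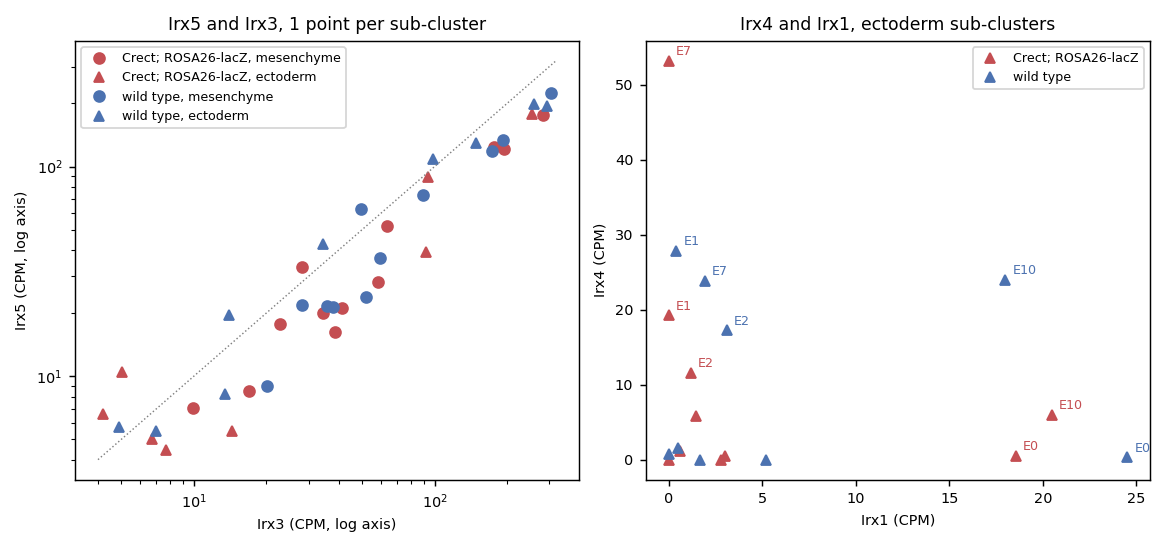
Left, Irx5 against Irx3 (CPM, log axes) with 1 point per sub-cluster of 50 or more cells, circles for mesenchyme, triangles for ectoderm, and the dotted line at equal CPM. Right, Irx4 against Irx1 (CPM) in ectoderm sub-clusters, with E7 (Gjb2) and E10 (Gabrp) of the Crect lacZ library, 40 and 36 cells, added: E0 (Fgf8) has Irx1 at 18.5 and 24.5 CPM and Irx4 at 0.501 and 0.292 CPM, while E1, E2 and E7 have Irx1 at 0 to 3.09 CPM and Irx4 at 11.6 to 53.2 CPM.

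Across sub-clusters Irx3 and Irx5 moved in parallel. Pearson's r of log2(CPM + 1) was 0.964 over 12 Crect lacZ and 0.961 over 11 wild-type mesenchyme sub-clusters, and 0.936 over 8 and 0.984 over 9 ectoderm sub-clusters; sub-clusters of a library share its embryos and depth, so these are descriptions. Irx6 correlated with Irx5 at 0.927 and 0.913 in the mesenchyme. Irx4 correlated with Irx3 at 0.932 and 0.864 in the ectoderm, and with its chromosome neighbour Irx1 at -0.382 and -0.0193. Irx1 and Irx2 correlated at 0.570 and 0.764 in the ectoderm.

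The share of Irx5 among Irx3 and Irx5 UMIs still varied between sub-clusters. It was 54.0% in Crect lacZ (50.6% to 57.3%) and 55.8% in wild type (52.3% to 59.1%) in the Calb2 and Gata2 sub-cluster, against 29.5% (24.4% to 35.0%) and 31.4% (27.2% to 35.9%) in the Slit2 and Aldh1a2 sub-cluster, and the intervals did not overlap in either library. In the Foxp2 sub-cluster it was 38.5% and 42.4%. In the ectoderm it was 55.6% and 52.5% in the Gabrp sub-cluster and 36.1% and 39.7% in the Gjb2 sub-cluster.

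Irx3 and Irx5 were also found in the same cells. After thinning, 286 Crect lacZ and 454 wild-type mesenchyme-like cells had a UMI of both, which is 30.4% and 33.6% of the cells with an Irx3 UMI; of the cells without one, 9.21% and 13.5% had an Irx5 UMI. In the ectoderm 32 and 81 cells had both. These shares are over all cells of a tissue, and since both genes are high in the same sub-clusters they show no sharing of cells beyond that pattern. Irx1 and Irx2 were not found together in any thinned ectoderm-like cell, and both were too thinly read for that to be informative.

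By the same correlation, the genes most like Irx3 in the mesenchyme were Irx5, the sphingosine phosphate receptor gene S1pr3, Net1, Crnde and Stmn2, with a smaller r over the libraries of 0.906 to 0.961. Those most like Irx5 were Irx3, Crnde, the growth factor gene Ptn, Net1 and Dnm3 (0.939 to 0.961), and those most like Irx6 were Cpxm2, Ptn, AI464131, Irx5 and Dnm3 (0.913 to 0.925). Irx1 was like Kif21a, Akap7, Map1b and Poc1b (0.764 to 0.833). For Irx2 and Irx4 in the mesenchyme no value exceeded 0.595, and both rest on few UMIs.

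In the ectoderm, Irx3 was most like the AP-2 gene Tfap2b, Klhl13, Cobll1, Pcp4l1 and Nr2e3 (0.945 to 0.969), and Irx5 like the ligand gene Wnt3, Tfap2a, Tfap2b, the chemokine gene Cxcl14 and Calml3 (0.951 to 0.980). Irx4 was most like Atxn10, Pdlim1, Zbtb34, Wnt7b and Plxna2 (0.907 to 0.921). Irx1 was most like Spred1, an inhibitor of Ras signalling, Zfp64, Pdzrn3, Rbbp7 and Smtn (0.715 to 0.869), and Irx2 like Kctd1, Spred1, Taf13, Arl4c and Zcchc9 (0.631 to 0.680). Irx6 was most like Calml3, Abhd4, Ttc28, C130021I20Rik and Tmem132c (0.827 to 0.856), on 23 Crect lacZ and 39 wild-type UMIs. These genes were ranked among 9368 in the mesenchyme and 9495 in the ectoderm, over 8 to 12 points per library.

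Periderm is the flat outer layer of the embryonic ectoderm, and cells with a UMI of Gabrp, a periderm gene, numbered 36 in Crect lacZ and 44 in wild type, against 711 and 904 other ectoderm-like cells. Irx1 had 19.2 CPM in Crect lacZ and 16.8 CPM in wild-type periderm-gated cells, against 4.05 and 6.69 CPM in the others. Irx2 had 26.0 and 11.52 CPM, against 4.83 and 4.80 CPM. Irx2 was 3.63-fold higher (2.23 to 5.91, adjusted p = 5.57e-05) and Irx1 3.21-fold higher (2.003 to 5.14, adjusted p = 0.000154) by edgeR, on 13 to 23 UMIs per library. So 2 of 6 members were called higher, where 8.64% of the 12236 genes tested were called, 5.13% higher and 3.51% lower. Irx4 (log2 fold change 0.60 ± 0.34), Irx5 (0.37 ± 0.16), Irx6 (0.56 ± 0.71) and Irx3 (-0.16 ± 0.16) did not pass. Irx1 was not called with DESeq2 (adjusted p = 0.0674), and without the library block the edgeR adjusted p was 0.0504 for Irx1 and 0.0575 for Irx2.

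The other TALE genes, which include the Meis, Pbx and Pknox cofactors that bind DNA beside homeodomain proteins, were counted in the same fits. Between ectoderm and mesenchyme, 2 of 12 were called higher, Meis2 (541 CPM in Crect lacZ and 625 CPM in wild-type ectoderm, against 230 and 242 CPM in mesenchyme; 2.50-fold) and Pbx4 (2.16-fold), and 1 lower, the tendon-linked gene Mkx (3.22-fold lower). The 3 calls of 12 are near the 22.4% of all genes tested that were called in either direction. The list's median log2 fold change was 0.39. Between nasal-gated and maxillary-gated mesenchyme, 1 was called higher, Pknox2 (4.30 and 4.08 CPM, against 1.79 and 0.616 CPM; 3.34-fold), and 3 lower, Pbx3 (2.37-fold lower), Meis1 (2.17-fold lower) and Mkx (2.10-fold lower), with a median of -0.25, where 2.51% of all genes tested were called higher and 2.42% lower. DESeq2 called 1 of the 12 higher and 2 lower there. None of the 11 tested for the periderm was called by edgeR; 5 of them had an unadjusted p under 0.05, and DESeq2 called 0.

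Of the 5 genes tied to IRX5 in the face, 1 was called higher and 3 lower in ectoderm than in mesenchyme, where 13.7% and 8.61% of all genes tested were. Gata2 was 10.5-fold lower, Cxcl12, the chemokine, 4.76-fold lower and Gata3 2.75-fold lower, and Cxcr4, the receptor of that chemokine, was 23.6-fold higher. The median log2 fold change of the 5 was -1.46, and Trps1 was not called (-0.53). Between nasal-gated and maxillary-gated mesenchyme, 1 of the 5 was called higher and 1 lower, where 4.93% of all genes tested were called in either direction. Cxcl12 had 9.89 CPM in Crect lacZ and 5.42 CPM in wild-type nasal-gated cells, against 24.8 and 15.8 CPM in maxillary-gated cells (2.68-fold lower, adjusted p = 2.83e-33 by edgeR). Gata2 had 117 and 127 CPM there, against 56.6 and 34.7 CPM (2.62-fold higher, adjusted p = 9.75e-113 by edgeR). Gata3 (log2 fold change -0.18), Trps1 (0.47) and Cxcr4 (-1.03, adjusted p = 0.164 by edgeR) were not called. In the periderm gate 1 of the 5, Cxcr4, was called lower (2.47-fold), where 3.51% of all genes tested were. Cxcr4 had 6.78 CPM in Crect lacZ and 4.43 CPM in wild-type periderm-gated cells, against 20.2 and 7.95 CPM in the others. The call thus rests on few UMIs in the gated cells.

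Between the genotypes, Irx3 and Irx5 read lower in the Crect lacZ library, with the lower ratios in the ectoderm. Irx3 had 52.8 CPM in Crect lacZ and 96.0 CPM in wild-type ectoderm, a ratio of 0.550 (95% Poisson interval 0.503 to 0.601), and Irx5 had 40.2 and 78.3 CPM, a ratio of 0.513 (0.464 to 0.567). In the mesenchyme the ratios were 0.825 (0.7999 to 0.851) and 0.761 (0.733 to 0.790). Irx4 in ectoderm had a ratio of 0.553 (0.419 to 0.724), Irx1 0.683 (0.501 to 0.923) and Irx2 1.18 (0.867 to 1.61). In the mesenchyme Irx6 was at 1.01 (0.865 to 1.19), Irx1 at 1.86 (1.21 to 2.91) on 69 and 33 UMIs, on the other side of 1 from its ratio in ectoderm, and Irx2 at 5.87 (2.28 to 19.2) on 33 and 5 UMIs. Over all mesenchyme-like cells, levels of Irx1 and Irx2 could not be told from the erythroid background. The Irx2 ratio may therefore compare free RNA, and the Irx1 ratio may do so in part. The Gsc sub-cluster held 58.0% of mesenchymal Irx1 UMIs in Crect lacZ and 51.5% in wild type. At 4.75 and 2.94 CPM it was above the erythroid level, and its Irx1 ratio was 1.62 (0.8955 to 3.04). The part of free RNA in these ratios was not tested. A ratio of 1.5 or more in either direction was seen for 11.4% of 10775 genes in the ectoderm and 13.9% of 12958 genes in the mesenchyme.

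The libraries also differed in the makeup of the ectoderm: the 3 sub-clusters rich in Irx3 held 20.9% of the Crect lacZ and 36.4% of the wild-type ectoderm-like cells. The part of this in the ratios was not tested. Within those 3 the Irx3 ratio was 0.978 (0.836 to 1.14) in the Tfap2b sub-cluster, 0.891 (0.736 to 1.08) in the Gjb2 sub-cluster and 0.636 (0.492 to 0.812) in the Cxcl14 and Wnt9b sub-cluster. The Irx5 ratio was 0.895 (0.743 to 1.07), 0.763 (0.595 to 0.975) and 0.689 (0.529 to 0.888) in the same order. The Fgf8 sub-cluster, low in both genes, was at 0.358 (0.161 to 0.716) for Irx3 and 0.538 (0.313 to 0.890) for Irx5, and the low-depth Rprml sub-cluster, with 74 Crect lacZ and 20 wild-type cells, at 0.461 and 0.342. In the Fgf8 sub-cluster Irx3 rested on 10 and 48 UMIs, and its 5.01 CPM in Crect lacZ was below the erythroid-like 6.15 CPM. Of the 6 ectoderm sub-clusters of 50 or more cells in both libraries, which leave out the Gjb2 and Gabrp ones, the interval lay below 1 in 2 and above it in none, for Irx3 and for Irx5. With these 6 weighted equally, a comparison added after the values were seen, the ratio was 0.848 for Irx3 and 0.801 for Irx5. Over 11 mesenchyme sub-clusters the Irx3 interval lay below 1 in 6 and above it in 1, and the Irx5 interval below 1 in 6 and above it in none; the Calb2 and Gata2 sub-cluster was lowest for both, at 0.569 and 0.529. Genotype, embryo pool, dissection and library cannot be told apart with 1 library each.

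**Figure D4:**
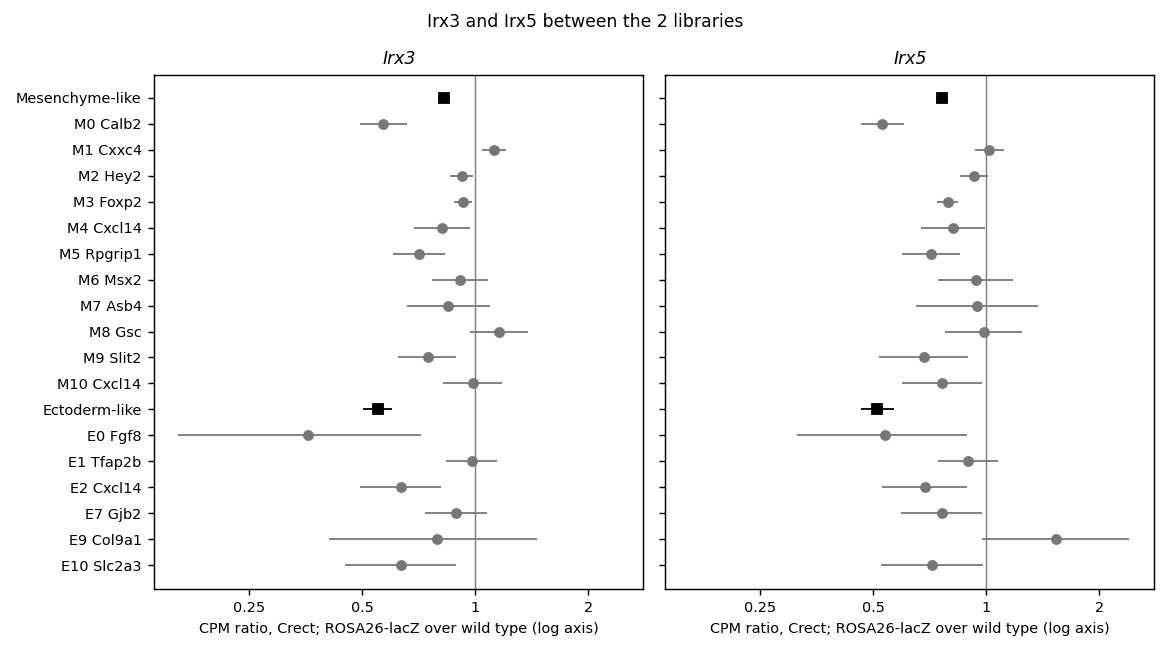
Ratio of CPM, Crect lacZ over wild type (x axis, log), of Irx3 and Irx5 in the mesenchyme-like and ectoderm-like cells (squares) and in single sub-clusters (circles), with exact 95% intervals for counting error. The ectoderm squares stand at 0.550 and 0.513. Among the Irx3-rich sub-clusters E1 (Tfap2b) stands at 0.978 and 0.895 and E2 (Cxcl14) at 0.636 and 0.689. E0 (Fgf8), where Irx3 is near the erythroid background in Crect lacZ, stands at 0.358 and 0.538.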

How the data were processed

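The authors deposited raw UMI counts, 1 value for each gene in each cell barcode. Libraries were made with a 10x 3′ v2 kit, per the labels' protocols, and Cell Ranger 2.0 with mm10 is named in the submitters' processing notes; how barcodes were filtered and strand was treated is not stated there. The members and gene lists were chosen with earlier results of these data known, and class names rest on a rule chosen once marker levels had been seen. Doublet scores came from Scrublet (scanpy 1.11.5). Its own threshold marked 2 Crect lacZ and 187 wild-type cells, so the highest-scoring 5.52% and 6.37%, proportional to barcode number, were removed instead. Clusters used 2000 variable genes without the Irx, TALE and IRX5-linked genes, Irx3os or Crnde, 30 components, 15 neighbours and Leiden resolution 1.0, and sub-clusters 20 components and resolution 0.8. A class needed 50% or more of its markers detected.

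Counts summed per library and class (4 sums, 1 residual degree of freedom) were tested with edgeR 4.0.16 in R 4.3.3 (TMM, filterByExpr, quasi-likelihood test, Benjamini-Hochberg over all genes). That 1 degree compares the class difference between 2 libraries of different genotype. The p-values rest mostly on spread shared over all genes. The shared spread counted as 8.446 degrees of freedom for tissue and 48.2 for periderm, and for nasal it was used alone. On simulated data 88%, 88% and 59% of 2-fold changes and 97%, 99% and 95% of 4-fold changes were recovered for tissue, nasal and periderm. A planned comparison within the ectoderm and some genes among those named by rule are not reported here. Sub-clusters with 50 or more cells and genes of 5 CPM or more entered the correlations. Members were always named, listed genes where called, neighbours within 500 kb at 100 or more UMIs, and the 5 genes most like each member. Locations came from GENCODE vM21. Alternatives were DESeq2 1.42.0, its size factors, no filter, no library block, doublets kept, a 5% mitochondrial limit, other resolutions and gates, and each library alone. Equal weights per sub-cluster and leaving out low-depth sub-clusters were added after seeing the data.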

Additional observations from a re-analysis of the deposited data

Results flagged for a closer look

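Irx5 in ectoderm over mesenchyme had opposite signs in the libraries, with log2 ratios of -0.46 in Crect lacZ and 0.10 in wild type, a difference of -0.57. Irx3 in periderm-gated over other ectoderm also had opposite signs, 0.12 in Crect lacZ and -0.26 in wild type, a difference of 0.38. Neither difference was tested, since each genotype has 1 library.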

How the results depend on the processing

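Of 114 results of single members recomputed under an alternative with a test, 111 kept their direction and side of the threshold, 3 lost a call, and none gained one or changed sign. At the lower clustering resolution, 0.5, every member's ectoderm over mesenchyme result was identical to the main one. Those results are among the 111 and add no check. With 1 library alone, Irx5 in ectoderm over mesenchyme ranged from -0.46 to 0.10 and Irx3 in the periderm gate from -0.26 to 0.12 (log2). Counts of genes called moved by over 1.5 times with DESeq2 and without the replicate block, which here is the library, in the nasal and periderm comparisons but not between ectoderm and mesenchyme. With DESeq2, 169 genes were called higher and 184 lower for nasal against maxillary (330 and 318 in edgeR), and 359 and 140 for the periderm (628 and 429). Without the block the counts were 66 and 60, and 378 and 130. The cause was not tested. With sub-clusters weighted equally, the Crect lacZ to wild-type ratio was 0.919 for Irx3 and 0.829 for Irx5 in the mesenchyme, and 0.848 for Irx3, 0.801 for Irx5 and 1.73 for Irx6 in the ectoderm. Over all ectoderm-like cells the Irx6 ratio was 0.730 (0.416 to 1.25), on 23 and 39 UMIs, so its direction changed with the weights. Depth limits Irx1, Irx2, Irx4 and Irx6, whose values per sub-cluster often rest on fewer than 50 UMIs.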
